A study of Homo sapiens with 6 samples.

Results

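Expression of CXCL8 and 9 related genes of chemokine signalling and NF-kB feedback was read from arrays of HepG2, a human hepatoma cell line, that were either left untreated (3 arrays) or given 50 µg/ml of a water extract of B. racemosa leaf for 24 h (3 arrays). The genes are the neutrophil-attracting chemokines CXCL8, CXCL1, CXCL2, CXCL3, CXCL5 and CXCL6, the chemokine CCL20, the NF-kB subunit RELB, and the NF-kB inhibitors NFKBIA and TNFAIP3. They were chosen by name, with the differences between leaf-treated and untreated cells on these same arrays already known, so those differences are described here and not tested. Each of the 10 genes had 1 transcript cluster (the set of probes summarised to 1 value for a transcript) on the Affymetrix Human Gene 1.0 ST array, out of 19291 tested clusters of 18372 genes, and none was listed at 0. Both groups are the same cell line, and the labels name no other agent. The treatment text is given alike for all samples, so untreated arrays are those labelled untreated. Whether untreated cells received the solvent of the extract is not stated, and the replicates are called biological without saying whether they were separate cultures.

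Chemokines are small secreted proteins that guide leukocytes. The CXC chemokines of this group draw neutrophils through the receptor CXCR2 and, for some of them, also CXCR1. CCL20 binds CCR6 on lymphocytes and dendritic cells. In hepatocytes and hepatoma cells these genes are switched on by cytokines such as TNF and IL-1 through NF-kB, a family of transcription factors that is held in the cytoplasm by IkB proteins. NFKBIA encodes the inhibitor IkB-alpha and TNFAIP3 the ubiquitin-editing enzyme A20. Both are themselves NF-kB target genes and limit the response. RELB is the subunit of the non-canonical pathway and is also an NF-kB target.

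The promoters are shown as a description, and their letters were not used in the choice of genes. The genes were named as chemokines and genes of NF-kB feedback, though, so NF-kB sites in their promoters are not an independent result. RefSeq promoter sequences of GRCh38.p14, from 250 bases before to 50 after the start of the gene, were given for 9 of the 10 genes and not for RELB. The letters GGAATTTCC, the centre of a common NF-kB site, were found on either strand in 7 of these 9 promoters and in 0.461% of 35116 promoters of the same length. This string was picked after the promoters of these genes had been read, so the contrast is a description. Each line below gives 31 bases, on the strand of the gene, with the 9 letters (or their reverse complement, in NFKBIA) in capitals.

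CXCL8, chr4:73740467-73740497, plus strand: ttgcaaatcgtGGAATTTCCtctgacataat
CXCL1, chr4:73869304-73869334, plus strand: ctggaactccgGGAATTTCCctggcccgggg
CXCL2, chr4:74099253-74099283, minus strand: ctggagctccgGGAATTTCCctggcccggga
CXCL3, chr4:74038748-74038778, minus strand: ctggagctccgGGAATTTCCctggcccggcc
CXCL5, chr4:73998748-73998778, minus strand: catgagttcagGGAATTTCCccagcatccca
CXCL6, chr4:73836578-73836608, plus strand: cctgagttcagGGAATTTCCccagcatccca
NFKBIA, chr14:35404811-35404841, minus strand: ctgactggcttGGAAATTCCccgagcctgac

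Of the 22 flanking bases in each line, 19 or 20 were equal at the same position between any pair of CXCL1, CXCL2 and CXCL3, and 21 between CXCL5 and CXCL6. The matches within these near copies are not separate finds. CXCL8 shared 5 to 8 of them with each of the other 6 genes. The broader NF-kB consensus (named here without its letters, searched on both strands) was found in 8 of the 9 promoters, all but that of CXCL8, and in 11.3% of all promoters. It overlapped the 9 letters in CXCL1, CXCL2, CXCL3, CXCL5, CXCL6 and NFKBIA, and in CCL20 and TNFAIP3 it was found without them. The AP-1 letters TGANTCA were found in the promoter of CXCL8 alone among the 9, and in 7.71% of all promoters. The letters TATAAA were found on the strand of the gene in CXCL8 and CCL20 and on the opposite strand in NFKBIA. On either strand they were found in 11.5% of all promoters. The last 150 bases before the start of CXCL8, chr4:73740419-73740568 on the plus strand, are printed next, with the AP-1 match, the 9 NF-kB letters and the letters TATAAA in capitals, in that order.

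CXCL8 promoter: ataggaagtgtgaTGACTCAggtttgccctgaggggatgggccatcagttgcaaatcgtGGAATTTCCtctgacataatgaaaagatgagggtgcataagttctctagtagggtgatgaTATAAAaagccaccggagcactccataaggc

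A match of letters is not a measured binding site, and no binding was measured here. Apart from the promoters, the 6 CXC genes share a place. In the RefSeq order of GRCh38.p14 they lie in 1 run of 9 protein-coding genes on chromosome 4, all of them chemokines: CXCL8, CXCL6, PF4V1, CXCL1, PF4, PPBP, CXCL5, CXCL3 and CXCL2. CCL20 lies on chromosome 2, TNFAIP3 on 6, NFKBIA on 14 and RELB on 19.

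The arrays have no detection calls, so the olfactory receptor genes, which hepatoma cells are not known to use, served as a stand-in for background. The 95th percentile of their 357 clusters was 3.22 to 3.49 on the 6 arrays on the log2 scale. The median of all tested clusters was 3.71 to 3.75 on the untreated arrays and leaf-treated array 2, against 3.81 and 3.83 on leaf-treated arrays 1 and 3. Leaf-treated array 2 correlated with the untreated arrays at 0.9917 to 0.993 and with leaf-treated arrays 1 and 3 at 0.9881 and 0.9865. Leaf-treated arrays 1 and 3 correlated with each other at 0.9881, no closer than arrays 1 and 2. Their correlations with the untreated arrays were 0.984 to 0.9882. The lowest array weight by limma, 0.463, was that of leaf-treated array 2. Without leaf-treated array 2 the log2 difference was 1.11 for CXCL8, 0.36 for RELB, 0.29 for CXCL1, 0.23 for CXCL2 and -0.14 for NFKBIA, beside the values with all arrays given for each gene. The hepatocyte markers ALB, AFP, APOA1, APOB, TTR, SERPINA1, FGB, TF and APOH were above background on all arrays, between 7.61 and 11.4, and HNF4A was not measured in the rows used. Their summed level (log2) was 13.6 to 13.7 on untreated and 13.4 to 13.6 on leaf-treated arrays. Of 9 measured leukocyte markers, PTPRC, CD3E and MS4A1 were at background on every array, while LYZ, CD68, CSF1R and NKG7 were above it on all 6. The summed level of the leukocyte list (log2) was 10.62 to 10.81 on untreated and 10.77 to 10.84 on leaf-treated arrays. LYZ alone, at 10.33 to 10.63, made up most of this sum, and the median log2 difference of the list was 0.0024. The part of these shifts in the results was not tested. In the list of endothelial and fibroblast markers 1 of 10, COL1A1, was above background on all arrays, and the summed level was 6.54 to 6.64 on untreated and 6.55 to 6.77 on leaf-treated arrays.

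Of the 10 genes, 6 were above background on all arrays, namely CXCL8, CXCL1, CCL20, RELB, NFKBIA and TNFAIP3. CXCL2 was above it on 4 of 6 arrays, and CXCL3, CXCL5 and CXCL6 on none. CXCL1 was thus detected on all arrays and CXCL3 on none, although their printed promoter segments differ little. For CXCL3, CXCL5 and CXCL6 no change could be measured above background. CXCL1, CXCL2 and CXCL3 are also close copies in their coding sequence, and whether their probes pick up each other's transcripts was not tested.

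**Figure D1:**
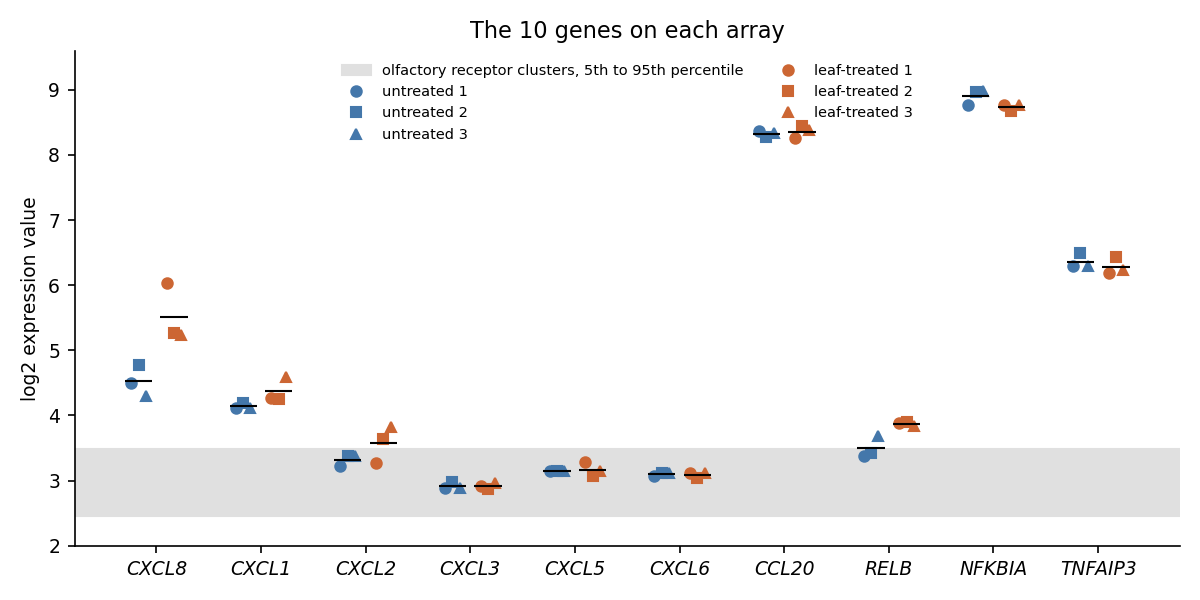
Log2 expression value (vertical axis) of the 10 genes on each of the 3 untreated and 3 leaf-treated arrays, with the group means as black lines and the 5th to 95th percentile of olfactory receptor clusters, at its widest over the 6 arrays, as a grey band. CXCL8 lay above the untreated values on each leaf-treated array, CXCL3, CXCL5 and CXCL6 lay inside the band, and CCL20 and NFKBIA lay above 8 in both groups.

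CXCL8 encodes interleukin-8, the chemokine that gives neutrophils their main signal to move toward injured or infected tissue. Its log2 value was 4.50, 4.78 and 4.30 on untreated arrays 1 to 3, and 6.04, 5.27 and 5.23 on leaf-treated arrays 1 to 3. All leaf-treated arrays were above all untreated arrays, and leaf-treated array 1 stood above arrays 2 and 3. The means were 4.53 ± 0.24 (SD, n = 3) and 5.51 ± 0.46 (SD, n = 3). The log2 difference was 0.99 with a standard error of 0.24 from limma, or 1.98 fold. Against the untreated mean, leaf-treated arrays 1 to 3 were higher by 2.86, 1.67 and 1.63 fold. As RNA came from whole cultures, more RNA per cell and more expressing cells cannot be told apart. Without leaf-treated array 1 the log2 difference was 0.72, and over the other alternatives it ranged up to 1.13.

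The series calls a gene changed when p before adjustment is below 0.05 and the change is 1.5 fold or more. By that rule CXCL8 was the 1 gene of these 10 that passed, as a higher one. Over all tested clusters 0.27% passed as higher and 0.57% as lower, or 52 and 110 clusters, which became 63 and 80 after quantile normalization and 30 and 189 after centring. None of the 10 was called at an adjusted p under 0.05 by limma, where 0.00518% of all clusters were called. Since the choice of CXCL8 rested on this comparison, nothing is read from these counts. In order of the log2 difference CXCL8 stood at place 5 and RELB at place 398 of 19291 clusters.

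RELB, the partner of p52 in the non-canonical NF-kB dimer, had log2 values of 3.38, 3.43 and 3.68 on the untreated and 3.88, 3.90 and 3.84 on the leaf-treated arrays. The leaf-treated values lay close together and above the untreated range. The means were 3.50 ± 0.16 (SD, n = 3) and 3.87 ± 0.030 (SD, n = 3), a log2 difference of 0.37 with a standard error of 0.094, or 1.30 fold. The level was low, near the upper edge of background in untreated cells, and the median of the olfactory receptor clusters was 2.77 to 2.84 on untreated arrays against 2.86, 2.76 and 2.84 on leaf-treated arrays 1 to 3. Their 95th percentile was 3.22, 3.35 and 3.25 on untreated arrays 1 to 3 against 3.42, 3.25 and 3.49 on leaf-treated arrays 1 to 3. The part of this background in the difference of RELB was not tested. Over all alternatives the difference stayed between 0.31 and 0.47.

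CXCL1, a ligand of CXCR2, had values of 4.12, 4.20 and 4.12 on untreated arrays and of 4.27, 4.26 and 4.60 on leaf-treated arrays. The groups did not overlap, by a narrow margin on leaf-treated arrays 1 and 2. The log2 difference was 0.23 with a standard error of 0.10, and 0.12 without leaf-treated array 3. CXCL2, a second ligand of CXCR2, had values of 3.22, 3.37 and 3.37 on untreated arrays and of 3.27, 3.63 and 3.82 on leaf-treated arrays. Here leaf-treated array 1, the array with the highest CXCL8, fell within the untreated range. The log2 difference was 0.26 with a standard error of 0.14, at 0.41 without leaf-treated array 1 and 0.13 without leaf-treated array 3. In all, 3 of the 10 genes had leaf-treated arrays wholly above untreated ones (CXCL8, CXCL1 and RELB) and 0 wholly below, where 6.14% and 7.41% of all clusters did. The leaf-treated arrays did not rank alike for the 3 CXC genes, since CXCL8 was highest on array 1 and CXCL1 and CXCL2 were highest on array 3.

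The other 3 CXC chemokines gave values at background in both groups. CXCL3 lay between 2.88 and 2.98 on the 6 arrays, CXCL5 between 3.06 and 3.29 and CXCL6 between 3.05 and 3.11. Their log2 differences were 0.0037, 0.023 and -0.0074, with standard errors of 0.065, 0.076 and 0.060, and each sign turned under at least 1 alternative. Among the 3 genes of the same stretch of chromosome 4 that are not members, PF4V1 and PPBP had overlapping groups. PF4, a platelet chemokine, had 3.22, 3.28 and 3.19 on untreated and 3.49, 3.41 and 3.37 on leaf-treated arrays, with 3 of the 6 arrays above background.

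CCL20, which attracts cells that carry CCR6, was strongly detected in both groups. Its values were 8.37, 8.28 and 8.34 on untreated arrays and 8.25, 8.44 and 8.38 on leaf-treated arrays. The leaf-treated values lay on both sides of the untreated ones, and the log2 difference was 0.031 with a 95% interval of -0.15 to 0.21. It was 0.13 after quantile normalization and turned to -0.033 after centring each array on its median.

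NFKBIA had log2 values of 8.77, 8.97 and 8.99 on untreated arrays and of 8.77, 8.67 and 8.77 on leaf-treated arrays. The leaf-treated mean was lower, and the groups met at untreated array 1. The log2 difference was -0.17 with a 95% interval of -0.37 to 0.027, and -0.068 after quantile normalization. TNFAIP3 had 6.30, 6.49 and 6.30 on untreated and 6.18, 6.44 and 6.23 on leaf-treated arrays. Its groups overlapped, with a log2 difference of -0.077 and a 95% interval of -0.31 to 0.16, and the sign turned to 0.043 after quantile normalization. Neither inhibitor thus had the direction of CXCL8 and RELB in the values as deposited.

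**Figure D2:**
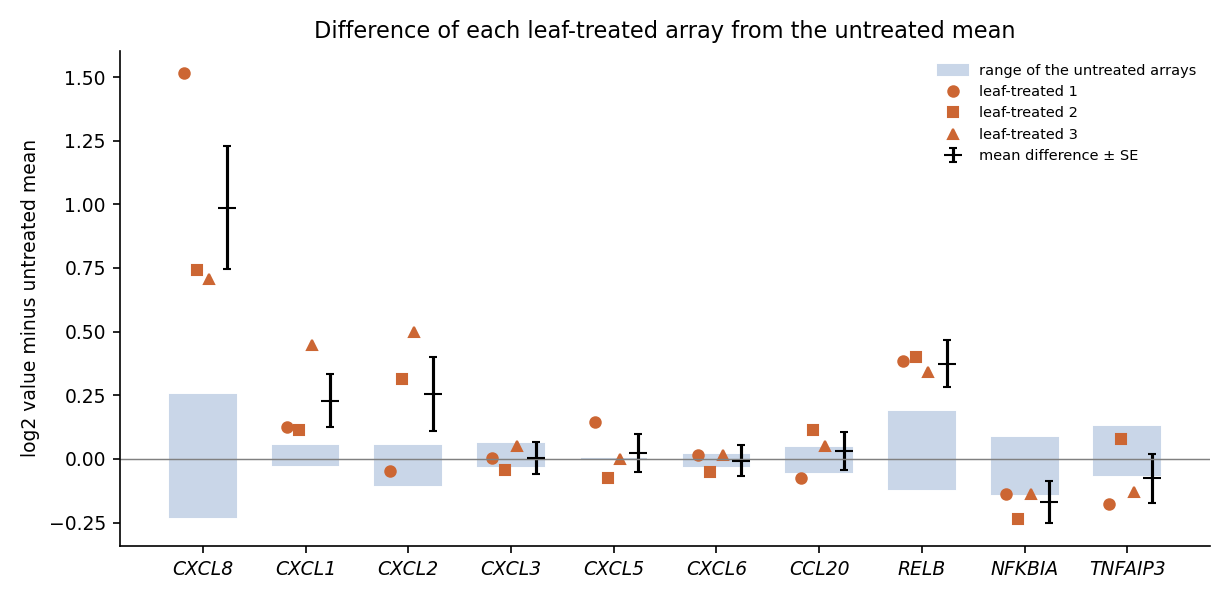
Log2 value of each leaf-treated array minus the mean of the untreated arrays (vertical axis) for the 10 genes, with the range of the untreated arrays as blue boxes and the mean difference ± SE from limma as black bars. CXCL8 was 0.71 to 1.52 above the untreated mean and RELB 0.34 to 0.40 above it, while NFKBIA was 0.14 to 0.24 below it.

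Values identical to the last deposited digit recurred in the table. NFKBIA was listed at exactly 8.77 on untreated array 1 and leaf-treated arrays 1 and 3, and CXCL5 at 3.14 on 4 arrays, among them all untreated ones, so that its untreated SD was 0. Of the 10 genes, 7 had the same value on at least 2 arrays, as had 41.13% of all tested clusters. The SD of such genes cannot be read as their full spread, and the origin of the equal values was not tested. CXCL8, RELB and CCL20 had 6 different values each.

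**Figure D3:**
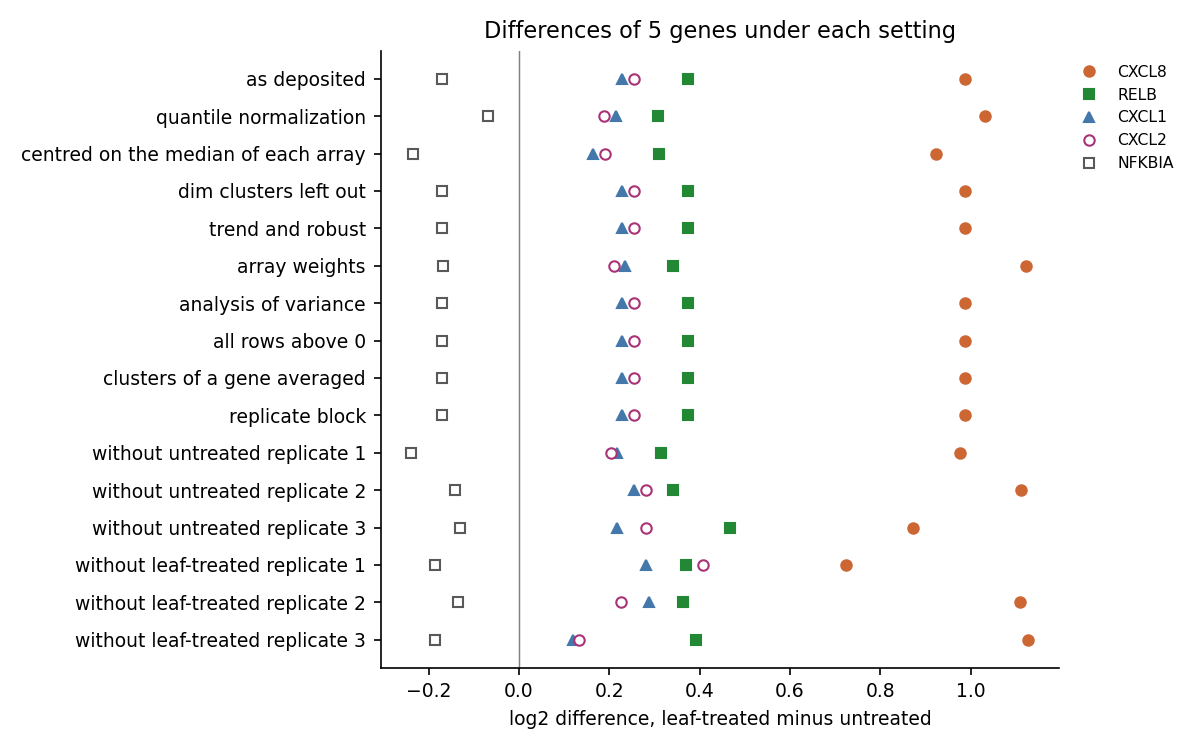
Log2 difference between leaf-treated and untreated arrays (horizontal axis) of CXCL8, RELB, CXCL1, CXCL2 and NFKBIA, with the values as deposited and under each of 15 alternatives (vertical axis). CXCL8 stayed between 0.72 and 1.13 and RELB between 0.31 and 0.47. The 5 genes shown are those that kept their sign under every alternative. The signs of CXCL3, CXCL5, CXCL6, CCL20 and TNFAIP3, which are not shown, turned under at least 1.

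The profile of CXCL8 over the 6 arrays was set against those of the other 19290 clusters by the root mean square of the differences, after the untreated mean of each cluster had been subtracted. The nearest was 1 of the 10 clusters of LRRFIP1, at a distance of 0.087 on the log2 scale. It had 5.11, 5.30 and 4.99 on untreated and 6.48, 5.90 and 5.81 on leaf-treated arrays, the same order of arrays as CXCL8 within both groups. The other 9 clusters of LRRFIP1 had log2 differences of -0.33 to 0.87, so that the likeness belongs to part of the gene. The next were EGR1, an early response transcription factor, MAP1B, a microtubule-associated protein, the precursor of MIR194-2 and 1 of 2 clusters of MROH6, at distances of 0.26, 0.27, 0.27 and 0.29. This MROH6 cluster, with a log2 difference of 0.60, was above background on 2 of the 6 arrays. The other cluster of MROH6 had a log2 difference of 0.99. Likeness over 6 arrays, which share 1 treatment, is a description and says nothing of shared control.

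The rest of the pathway was taken from 8 gene lists, of which 127 of 137 genes were measured by 136 clusters. By limma 0 of these clusters were called at an adjusted p under 0.05, and 0 passed the thresholds of the series' design. The count was also 0 by analysis of variance. Before adjustment, p was below 0.05 for 12 clusters with higher and 4 with lower values in leaf-treated cells, beside 746 (3.87%) and 1139 (5.9%) over all tested clusters. The median log2 difference was 0.047, and 90 of 136 clusters were above 0, beside a median of 0.011 and 10243 of 19291 over all tested clusters. The olfactory receptor clusters, the stand-in for background, also had a median of 0.047. For the 72 pathway clusters above background on all arrays the median was 0.0355, beside -0.030 for all such clusters. LTB, IER3, CFB and TNF each entered the pooled counts and medians with several clusters of identical values. These pooled figures were not counted by gene. The part of background in these medians was not tested. The lists are described in turn, from the ligands and receptors to the factors that act on them.

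The chemokine receptors gave little signal. CXCR1 and CXCR2 were at background on every array, at 2.70 to 2.90, ACKR1, the scavenging receptor of red cells and vessels, was above it on 5, and CCR6, named after its value was seen, was above it on all 6 with a log2 difference of 0.035. Of 33 measured other chemokines, 5 were above background on all arrays, and the list had a median log2 difference of 0.074 with 4 clusters higher and 0 lower at an unadjusted p under 0.05, where 3.87% and 5.9% of all clusters were. The median was 0.016 without leaf-treated array 1 and 0.0099 after centring. CCL16, a chemokine of the liver, had 4.01, 3.90 and 4.04 on untreated and 4.27, 4.07 and 4.29 on leaf-treated arrays, a log2 difference of 0.23 (standard error 0.085, adjusted p = 0.51 from limma). CCL1, a chemokine of T cells, had a log2 difference of 0.32 (standard error 0.12, adjusted p = 0.51 from limma) at levels near background.

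The other NF-kB subunits and IkB proteins comprised 9 genes, 8 of them above background, with a median log2 difference of 0.030 and no cluster past an unadjusted p of 0.05. With 1 array left out this median ran from -0.013 to 0.057, so it had no settled sign. RELA, the activating subunit of the classical dimer, had 5.20, 5.20 and 5.29 on untreated and 5.67, 5.41 and 5.29 on leaf-treated arrays, a log2 difference of 0.23 (standard error 0.11, adjusted p = 0.52 from limma). NFKB1, which encodes its partner p50, had 6.46, 6.42 and 6.53 on untreated and 6.19, 6.61 and 5.60 on leaf-treated arrays. Its leaf-treated values were spread on both sides of the untreated ones. REL had leaf-treated values wholly below the untreated ones, with a log2 difference of -0.098 (standard error 0.065, adjusted p = 0.59 from limma).

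Upstream of NF-kB, 23 of 27 receptors, adaptors and kinases were measured, with a median log2 difference of 0.038, which turned to -0.016 without leaf-treated array 2 and -0.026 after centring. The adaptor of the TNF receptor, TRADD, had a log2 difference of 0.25 with overlapping groups (limma, standard error 0.10, adjusted p = 0.51). TAB3, a subunit of the kinase complex that activates IKK, had 0.17 with leaf-treated arrays wholly above untreated ones (adjusted p = 0.51 from limma, standard error 0.069). MAP3K7, the kinase of that complex, named after its value was seen, had 7.66, 7.42 and 7.42 on untreated and 6.88, 7.31 and 7.35 on leaf-treated arrays, wholly lower, with a log2 difference of -0.31 (limma, standard error 0.14, adjusted p = 0.51). CD40, a receptor of the TNF family, was above background on 1 array and had a log2 difference of 0.16.

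The deubiquitinases and partners of TNFAIP3 had the lowest median of the 8 lists as deposited, at -0.12 over 10 clusters, of which 3 were lower and 0 higher at an unadjusted p under 0.05, beside 5.9% and 3.87% of all clusters. The median was -0.075 without untreated array 2 and -0.18 after centring. TNIP1, which links A20 to its ubiquitylated targets, had 5.78, 5.63 and 5.41 on untreated and 4.97, 5.48 and 5.11 on leaf-treated arrays. Its log2 difference was -0.42 (standard error 0.15, adjusted p = 0.51 from limma), with leaf-treated array 2 inside the untreated range. TNIP2, of the same family, and the ubiquitin ligase ITCH had log2 differences of -0.21 and -0.24 (adjusted p = 0.51 for both from limma), with leaf-treated arrays wholly below untreated ones.

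The other NF-kB response genes were 30 genes with 39 clusters, since LTB, IER3, CFB and TNF each had 3 or 4 clusters with identical values. Counted by gene, 22 of 30 were above 0, with a median log2 difference of 0.10 where that over all genes was 0.011. Over clusters the median was 0.12, and it was 0.22 for the 17 clusters above background on all arrays, beside -0.030 for all such clusters. The median over clusters was 0.060 after centring, 0.077 without untreated array 2 and 0.19 without leaf-treated array 2. Of the clusters with p below 0.05 before adjustment 5 of 39 were higher and 0 lower, beside 3.87% and 5.9% of all clusters, and 6 had leaf-treated arrays wholly above untreated ones, beside 6.14%. SELE and SAA1 of these 5, and SELE, SAA1 and IRF1 of the 6, were at background on every array. LCN2, an iron-scavenging acute phase protein, had 4.73, 4.66 and 4.88 on untreated and 5.17, 5.01 and 5.02 on leaf-treated arrays, a log2 difference of 0.31 (standard error 0.086, adjusted p = 0.45 from limma). IL32, a cytokine, had 4.11, 4.10 and 4.10 on untreated and 4.46, 4.40 and 4.25 on leaf-treated arrays, a log2 difference of 0.27 (standard error 0.074, adjusted p = 0.45 from limma). SELE encodes an endothelial adhesion molecule. LTB, a cytokine of the TNF family named after its values were seen, supplied the 4 points at 0.53, with overlapping groups.

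Proteins that bind or degrade chemokine mRNA had a median log2 difference of -0.050 over 8 clusters, and its sign turned to 0.0078 after quantile normalization and to 0.039 without leaf-treated array 3. HNRNPD, which binds AU-rich elements, was lower on every leaf-treated array, by 0.21 on the log2 scale in the mean (9.67, 9.61 and 9.73 against 9.48, 9.41 and 9.49, adjusted p = 0.48 from limma). ZFP36L1, a decay factor of the same mRNAs, was higher on every leaf-treated array, with a log2 difference of 0.25 (standard error 0.095, adjusted p = 0.51 from limma). ZC3H12A, a nuclease that cuts inflammatory mRNAs, had a log2 difference of 0.20 with groups that touched. Of the AP-1 and C/EBP factors, 8 of 10 were above 0, beside 9776 of 18372 over all genes, with a median log2 difference of 0.082 and no cluster past an unadjusted p of 0.05. The median was 0.018 after centring, 0.16 without leaf-treated array 2 and 0.045 without leaf-treated array 3. FOS, FOSB and JUND, subunits of AP-1, had log2 differences of 0.20, 0.20 and 0.19 with overlapping groups. FOS was listed at exactly 3.87 on untreated array 1 and on all leaf-treated arrays, so its spread cannot be read in full.

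**Figure D4:**
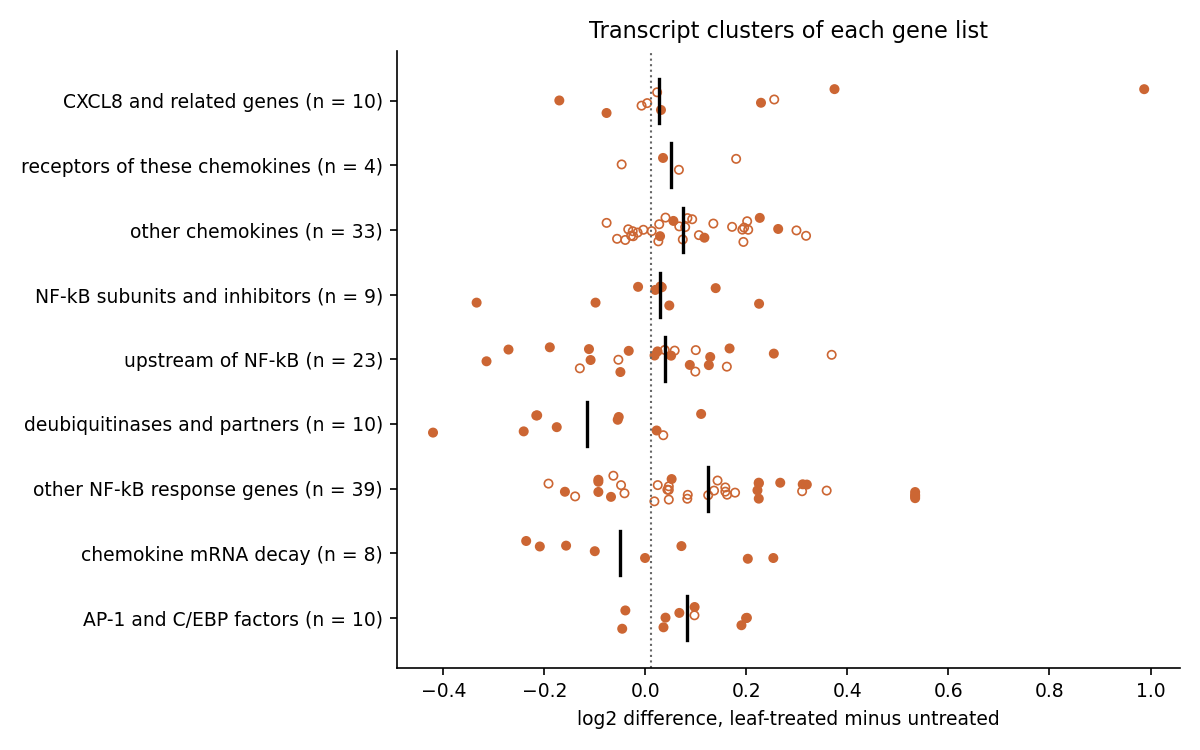
Log2 difference between leaf-treated and untreated arrays (horizontal axis) of every transcript cluster in the 10 genes and the 8 pathway lists (vertical axis), with filled points for clusters above background on all 6 arrays, open points for the others, list medians as black bars and the median of all tested clusters, 0.011, as a dotted line. CXCL8 stood apart at 0.99, and the list medians ran from -0.12 to 0.12.

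Genes elsewhere whose promoters hold the same letters were described in the same way, with the 10 genes left out. For GGAATTTCC there were 76 clusters of 74 genes, with a median log2 difference of 0.029, and -0.029 for the 51 above background, beside 0.011 and -0.030 over all clusters. Of these, 0 were called by limma, 1 passed the thresholds of the series' design (PLLP, as higher, named after its value was seen), 8 (10.5%) had leaf-treated arrays wholly above untreated ones and 3 (3.95%) wholly below, beside 6.14% and 7.41% of all clusters. For the broader NF-kB consensus there were 2378 clusters with a median of 0.019, and -0.0074 for the 1476 above background. Of the 2378 clusters 1 was called, as lower, and it was the 1 called cluster (0.00518%) of all 19291 tested. In this set 7.4% lay wholly above and 6.9% wholly below. For TGANTCA the median was 0.030 over 1185 clusters and -0.0051 over the 550 above background, with 0 called, 6.41% wholly above and 4.98% wholly below.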

How the data were processed

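The values deposited by the authors are log2 RMA values, 1 column for each of 6 arrays. GCOS, Partek and RMA appear in the submitters' processing notes with no version. Neither the options of RMA nor the genome build of the probes is stated in the sources read. RMA corrects background, normalizes and summarises probes, which fits values on a log2 scale, but the deposited columns were not equal in distribution, with medians of 3.37 to 3.53 over rows above 0. Of 33297 rows, 4468 at 0 on every array were left out, 1735 had several symbols, 7803 had none and 19291 had 1 symbol in the platform annotation and were tested. Groups came from the sample titles, and p reflects the spread among these arrays alone, which may be technical.

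Groups were compared with limma 3.58.1 (R 4.3.3, lmFit and eBayes, no covariate) across all tested clusters with Benjamini-Hochberg adjustment, and the script was tested on simulated data. The number of arrays limits the precision. The alternatives were quantile normalization, median centring, leaving out clusters with a mean under 3.28, an intensity trend with robust fit, array weights, the analysis of variance of the series' design, all rows, averaged clusters, a replicate block and leaving out each array. The 10 genes, the lists and the tests were chosen with earlier results of these data known. Besides the 10 genes and the 5 clusters most like CXCL8, up to 3 genes with the smallest p in each list were named. Cell type markers were named from their lists, PF4V1 and PPBP by their place, and IER3, CFB and TNF for their identical clusters. CCR6, MAP3K7, LTB, SAA1, IRF1 and PLLP were named after their values were seen. Motifs were searched on both strands, palindromes once.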

Additional observations from a re-analysis of the deposited data

How the results depend on the processing

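None of the 10 genes and no pathway gene was called at an adjusted p under 0.05 under any alternative, and CXCL8 passed the thresholds of the series' design in all 15. Counts over all clusters moved with the settings. The 1 called cluster became 8 after quantile normalization, 3 after centring on the median, 4 without dim clusters, 2 with trend and robust fit, 3 with array weights, 2 with all rows, 2 with averaged clusters, 0 with the analysis of variance and 0 when any array was left out. The 52 higher clusters past the thresholds of the series' design became 30 after centring, 82 with array weights, 33 with the analysis of variance and 88 with all rows, and 41 to 167 with 1 array left out. The 110 lower clusters became 189 after centring and 68 with the analysis of variance, and 68 to 323 with 1 array left out. The highest counts of both came without leaf-treated array 2. Pathway clusters past these thresholds numbered 0 to 4 with 1 array left out, and the 4 were the identical clusters of LTB without leaf-treated array 2. The cause of these shifts was not tested.

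With the replicate number as a block 0 clusters were called. The samples share only a number, and the labels do not say that it pairs the arrays. Same-numbered arrays had correlated deviations of -0.11, -0.18 and 0.12, beside -0.19 to 0.27 for differently numbered ones. So few arrays cannot decide whether they were paired. Signs turned under at least 1 alternative for CXCL3, CXCL5, CXCL6, CCL20 and TNFAIP3, all with log2 differences between -0.077 and 0.031. Without dim clusters CXCL3, CXCL5 and CXCL6 dropped out, and the median of the genes kept was 0.23, with their own differences unchanged. The median of all 10 genes, 0.027, was -0.037 after centring. Centring also turned those of the lists of receptors, NF-kB subunits and upstream genes to -0.014, -0.034 and -0.026, while the median of all clusters went from 0.011 to -0.054. The median of the mRNA decay list turned after quantile normalization and without leaf-treated array 3. Levels near background limit RELB, CXCL2, CXCL3, CXCL5 and CXCL6.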
